A study of Mus musculus with 6 samples.

Results

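The genes described here are those of somatostatin interneurons and of the receptors for their peptide, in the prefrontal cortex of mice with a knockout of *Pla2g4e*. They are 10 of the 56923 genes listed: the peptide gene *Sst*, the companion genes *Cort*, *Npy*, *Crhbp*, *Chodl*, *Nos1* and *Elfn1* that mark somatostatin cells, and the receptors *Sstr1*, *Sstr2* and *Sstr4*. *Sst* was chosen by its known difference between the genotypes in these same libraries, so its values are given as a description with no test. The other 9 were chosen by their function, matched by gene symbol, with earlier results of these data known. All 10 had enough fragments to be tested, among 19084 genes.

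Somatostatin interneurons are inhibitory cells of the cortex, born in the medial ganglionic eminence, many of which send axons to layer 1 and contact the distal dendrites of pyramidal neurons. They release GABA and, from dense core granules, the peptide somatostatin, which acts on receptors coupled to inhibitory G proteins and can open potassium channels of the GIRK family. Transcription of *Sst* is a classic case of control by cAMP and the factor CREB. A small subset with long-range axons carries *Nos1*, *Chodl* and *Npy* together. *Sst*, *Npy* and *Nos1* are also used by interneurons of the striatum, and *Nos1*, *Npy* and *Elfn1* by cells of other cortical classes, so none of the companions is an exclusive marker of the class in bulk tissue.

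Polyadenylated RNA was sequenced in strand-specific libraries from 3 *Pla2g4e* knockout (KO) and 3 wild-type (WT) samples of mouse prefrontal cortex. *Pla2g4e* encodes a calcium-dependent phospholipase with N-acyltransferase activity. Per the methods of the study, the KO is constitutive in all cells and carries the C57BL/6N-A tm1Brd Pla2g4e tm2a allele, in which splicing to a LacZ trap is predicted to leave no functional product. The dissection took the frontmost tissue of the brain, mice of both sexes were used in the study, and the age of these mice is not given in the sources used here. The labels name no treatment. Nothing in the labels says whether the 3 libraries of a group come from separate litters or preparations, so p-values measure the spread between these libraries only.

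Library totals ran from 11792463 to 14594230 fragments, and 3 fragments corresponded to 0.206 to 0.254 CPM (fragments per 1000000 counted, scaled by the trimmed mean of M-values). The targeted gene was still counted in the KO. Its level was 5.95, 8.12 and 7.97 CPM in KO (replicates 1 to 3, the order used throughout), against 7.84, 11.3 and 13.2 CPM in WT. The library labelled WT replicate 1 lay inside the KO range, and a count over the whole gene does not separate exons before and after the trap, so it does not check the labels. KO and WT stand throughout for libraries labelled so. *Xist*, the transcript of the inactive X chromosome of females, reached 1390 CPM in KO replicate 1 and 969 CPM in WT replicate 1, while the remaining 4 libraries held 0.246 CPM or less. Markers of the glutamatergic neurons of cortex were present in every library, with *Slc17a7* between 1161 and 1628 CPM. KO replicate 1 stood apart in markers of the olfactory bulb, whose 10 genes summed to 263 CPM there and to between 39.7 and 96.8 CPM in the other libraries. The bulb marker *Th* reached 39.1 CPM there, against 9.55 CPM or less elsewhere. No bulb marker was at 0 in all libraries, and 1 was at 0 in at least 1 library. The 11 striatal markers summed to 513 to 677 CPM in KO and 419 to 631 CPM in WT. The part of these tissues in the results below was not tested, and the log2 fold changes without KO replicate 1 are given for the genes of the cells and receptors and for several of the other genes named.

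The promoter of *Sst* is shown because its cAMP response element is the textbook site of CREB, and that of *Sstr2* because it was the only other window of these genes holding the same full element, TGACGTCA. Windows of 300 bases, from 250 bases before the transcript start to 50 after, were read from RefSeq on GRCm38.p6, and 9 of the 10 genes had an entry. The capitals mark the element, which reads the same on both strands. It began 48 bases upstream of the start in *Sst* (chr16:23890795-23891094, minus strand) and 58 bases upstream in *Sstr2* (chr11:113619077-113619376, plus strand).
Sst: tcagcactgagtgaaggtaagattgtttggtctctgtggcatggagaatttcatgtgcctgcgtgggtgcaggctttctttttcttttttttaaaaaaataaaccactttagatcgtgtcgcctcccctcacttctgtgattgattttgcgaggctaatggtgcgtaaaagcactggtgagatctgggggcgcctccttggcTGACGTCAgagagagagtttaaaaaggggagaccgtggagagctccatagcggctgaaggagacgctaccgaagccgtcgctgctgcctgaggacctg
Sstr2: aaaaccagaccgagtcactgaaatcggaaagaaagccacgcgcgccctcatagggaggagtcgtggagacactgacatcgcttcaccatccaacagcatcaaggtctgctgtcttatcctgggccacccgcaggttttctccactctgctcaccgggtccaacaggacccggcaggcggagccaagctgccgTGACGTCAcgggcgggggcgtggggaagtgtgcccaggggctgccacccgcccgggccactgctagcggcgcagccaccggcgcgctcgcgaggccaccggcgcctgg

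The element occurred in 588 of 32851 windows of the same length, or 1.79%. Its core TGACG, searched on both strands, occurred in 20.8% of windows and, besides *Sst* and *Sstr2* where it lies within the full element, in those of *Cort*, *Crhbp* and *Nos1*. It was not in the windows of *Npy*, *Chodl*, *Elfn1* and *Sstr4*. Of the 420 tested genes with the full element, 51.7% were lower in KO and their median log2 fold change was -0.00. Of the 12800 tested genes with a window, 49.6% were lower. Whether CREB bound or acted on any of these genes was not measured.

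*Sst* transcript was lower in all 3 KO libraries than in any WT library. *Sst* (ENSMUSG00000004366.5, chromosome 16, 23708323 to 23709708, minus strand of GRCm39) was at 80.4, 95.3 and 93.1 CPM in KO, from 1190, 1138 and 1192 fragments. It was at 142, 117 and 121 CPM in WT, from 1806, 1430 and 1541 fragments. KO replicate 1 was the lowest and WT replicate 1 the highest of the 6, and these are the libraries with high *Xist*. The means were 89.6 ± 8.03 CPM in KO and 127 ± 13.2 CPM in WT (SD, n = 3), a log2 fold change of -0.50 (SE 0.09) that corresponds to -29.2%. Counting error was at most 2.96% of a library's value, below the spread between libraries. The log2 difference, with 0.5 CPM added to each value, was -0.81 between the pair of libraries with high *Xist* and -0.34 among the other 4, where the KO values still lay below the WT values. The fitted value without KO replicate 1 was -0.42, without WT replicate 1 it was also -0.42, and over the 18 alternatives it ran from -0.55 to -0.34. In bulk tissue fewer somatostatin cells and less *Sst* RNA per cell cannot be told apart from the level of *Sst* itself, and the companion genes were read for this reason.

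**Figure D1:**
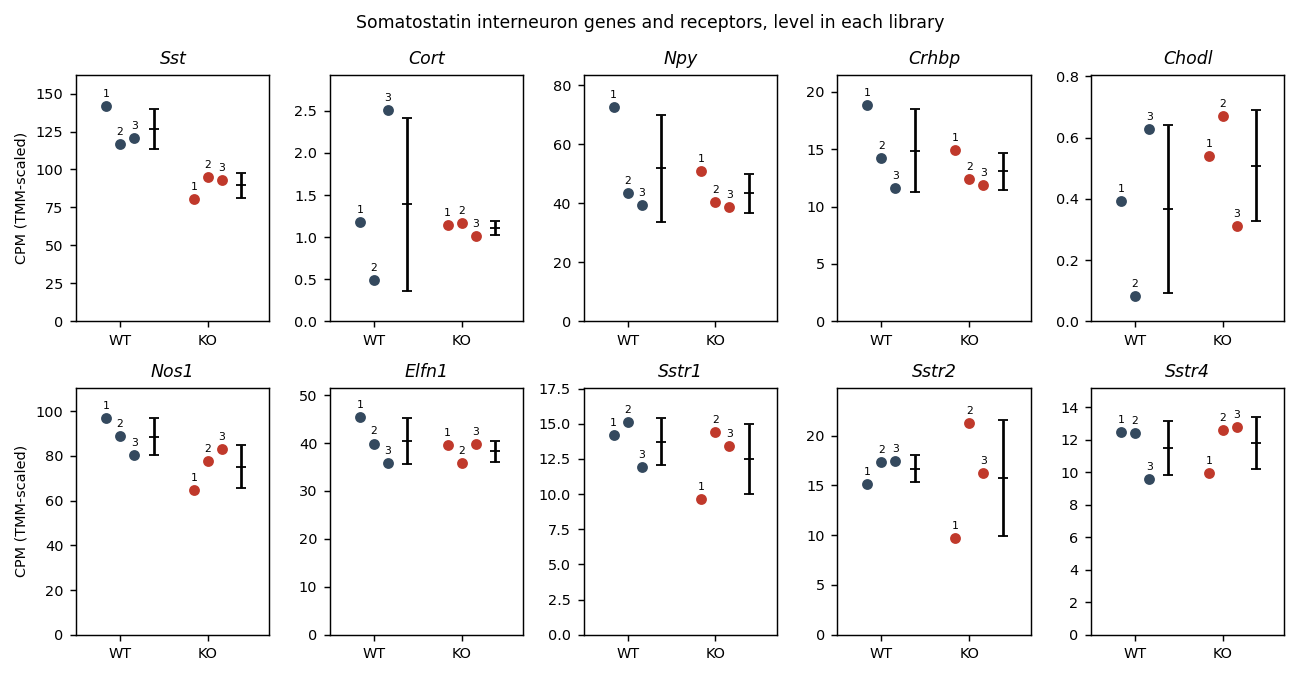
Level of each of the 10 genes in CPM (vertical axes, from 0, scaled separately per gene) in the 3 WT and 3 KO libraries, each point a library with its replicate number, and the mean with SD at its right. The KO points lie below all WT points for *Sst*, and the groups overlap for the other 9 genes.

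None of the 6 companion genes and 3 receptors passed the adjusted threshold of 0.05 in limma-voom, where 0% of the 19084 genes tested passed. Of the 9, 7 were lower and 2 higher in KO, with a median log2 fold change of -0.16 beside 0.01 over all genes. The share of genes with an unadjusted p-value under 0.05 was 3.44% in the lower and 4.38% in the higher direction, and of the 9 genes 1 had one, *Nos1*. Every KO library lay below every WT library for 6.29% of genes and above for 6.72%, and for none of these 9. The median of the 9 was -0.08 without KO replicate 1 and -0.00 without the 2 libraries with high *Xist*.

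The peptide companions overlapped between the genotypes. *Npy*, which encodes neuropeptide Y (chromosome 6, 49799690 to 49806487, plus strand), was at 51, 40.3 and 38.8 CPM in KO, against 72.7, 43.5 and 39.3 CPM in WT. WT replicate 1 was high, as for *Sst*, and the other 2 WT libraries lay inside the KO range. The log2 fold change of *Npy* was -0.21 (95% interval -0.62 to 0.20, adjusted p = 0.77 in limma-voom), and it was -0.34 without KO replicate 1 and 0.07 without WT replicate 1. *Cort* (chromosome 4, 149209491 to 149211220, minus strand) encodes cortistatin, a peptide related to somatostatin that binds the same receptors. It was low, at 1.15, 1.17 and 1.02 CPM in KO, against 1.18, 0.491 and 2.51 CPM in WT, from 6 to 32 fragments. The log2 fold change of *Cort* was -0.06 (95% interval -1.13 to 1.01, adjusted p = 0.982 in limma-voom). It was -0.08 without KO replicate 1, and changes of about 2-fold in either direction lie inside the interval, so they were not detectable at this depth.

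*Crhbp* (chromosome 13, 95567879 to 95581432, minus strand) encodes the binding protein that sequesters corticotropin-releasing hormone. It was at 14.9, 12.4 and 11.9 CPM in KO, against 18.8, 14.2 and 11.6 CPM in WT. Its order over the libraries was close to that of *Npy*, with replicate 1 the highest in each group. The log2 fold change was -0.16 (95% interval -0.53 to 0.21, adjusted p = 0.803 in limma-voom), and it was -0.27 without KO replicate 1 and 0.03 without WT replicate 1. Whether *Npy*, *Crhbp* or any other companion differed from *Sst* in its change was not tested.

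The genes of the long-range subset gave values of unequal precision. *Nos1*, the neuronal nitric oxide synthase (chromosome 5, 117919097 to 118096905, plus strand), was at 64.7, 77.9 and 83.2 CPM in KO, against 96.9, 88.9 and 80.2 CPM in WT. KO replicate 1 was the lowest library and WT replicate 1 the highest, as for *Sst*, but KO replicate 3 lay above WT replicate 3. The log2 fold change of *Nos1* was -0.24 (SE 0.10, 95% interval -0.46 to -0.03), with an unadjusted p of 0.0303 and an adjusted p of 0.635 in limma-voom. It was -0.13 without KO replicate 1 and -0.07 without the 2 libraries with high *Xist*. *Chodl*, which encodes the membrane lectin chondrolectin (chromosome 16, 78727836 to 78748621, plus strand), had 8, 8 and 4 fragments in KO, against 5, 1 and 8 in WT. Its log2 fold change of 0.66 had a 95% interval from -0.80 to 2.11 (adjusted p = 0.795 in limma-voom), and it was 0.58 without KO replicate 1, so the counts were too low to show a direction.

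*Elfn1* encodes the adhesion protein that somatostatin cells place at their excitatory input synapses (chromosome 5, 139893698 to 139960477, plus strand). It was at 39.5, 35.8 and 39.7 CPM in KO, against 45.5, 39.9 and 35.8 CPM in WT. The groups overlapped, although WT replicates 1 and 2 lay above all KO libraries. The log2 fold change was -0.07, with a 95% interval from -0.28 to 0.14 (adjusted p = 0.853 in limma-voom). It was -0.09 without KO replicate 1 and 0.02 without WT replicate 1.

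The receptors were examined next, as the receiving side of the peptide. *Sstr1* (chromosome 12, 58258558 to 58261230, plus strand) was at 9.67, 14.4 and 13.4 CPM in KO, against 14.2, 15.1 and 11.9 CPM in WT. *Sstr2* (chromosome 11, 113510168 to 113516854, plus strand) was at 9.67, 21.3 and 16.2 CPM in KO, against 15.1, 17.4 and 17.5 CPM in WT. KO replicate 1 was the lowest library for both receptors, and KO replicate 2 was the highest of all for *Sstr2*. The log2 fold changes were -0.17 for *Sstr1* (95% interval -0.52 to 0.18, adjusted p = 0.776 in limma-voom) and -0.19 for *Sstr2* (-0.66 to 0.29, adjusted p = 0.824 in limma-voom). Without KO replicate 1 they were 0.02 and 0.16. *Sstr4* (chromosome 2, 148237264 to 148238687, plus strand) was at 9.94, 12.6 and 12.8 CPM in KO, against 12.5, 12.4 and 9.58 CPM in WT, and its log2 fold change was 0.03 (95% interval -0.30 to 0.36, adjusted p = 0.971 in limma-voom). It was 0.16 without KO replicate 1.

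The rest of the receptor family gave a like picture. *Sstr3*, a receptor placed on neuronal primary cilia, was at 30.9, 32.4 and 30.7 CPM in KO, against 36.5, 33.7 and 30.2 CPM in WT, with a log2 fold change of -0.09 (95% interval -0.29 to 0.10, adjusted p = 0.785 in limma-voom) that was -0.08 without KO replicate 1. *Sstr5* had 0 to 4 fragments in a library and was not tested. Summed over the 5 receptors the level was 60.2, 80.8 and 73.4 CPM in KO, against 78.4, 79 and 69.5 CPM in WT, so the receptor total was lowest in KO replicate 1 and overlapped between the genotypes.

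**Figure D2:**
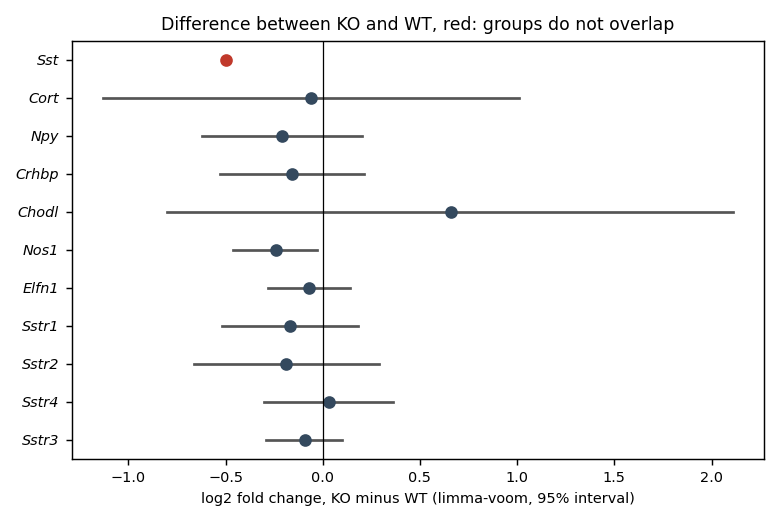
Log2 fold change of KO over WT (horizontal axis) for the 10 genes and *Sstr3*, points from limma-voom and lines their 95% intervals. *Sst*, at -0.50, is drawn without an interval because it was chosen by this difference. The line of *Nos1* ends at -0.03, and those of the other 9 genes cross 0.

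Compared per length, as TPM (transcripts per 1000000) over the 6 libraries, *Sst* was the most abundant of the 10 at 577 ± 113 TPM (SD, n = 6), followed by *Npy* at 324 ± 85.9 TPM. The ranges of these neighbours overlapped. *Elfn1* at 36.4, *Sstr4* at 31.6, *Crhbp* at 29.9, *Sstr2* at 29.2, *Nos1* at 28.3 and *Sstr1* at 24.7 TPM formed a middle group in which each overlapped the next. *Cort* followed at 7.10 TPM and *Chodl* at 0.307 TPM, and neither overlapped its neighbours. The receptor transcripts were therefore at the level of the companion genes *Crhbp* and *Nos1*, while the peptide transcript was the highest.

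To ask whether *Sst* was lower beyond its cell type, the log2 ratio of *Sst* to each other gene was taken within each library, with 0.5 CPM added to both levels. These ratios contain the *Sst* values that chose the gene, so a ratio to any gene of even level is lower in KO by construction, and they are a description. The mean ratio was lower in KO for all 9 companions and receptors. Every KO library lay below every WT library for 3 of the 9 ratios, whereas this held for 71.9% of the ratios of *Sst* to all other tested genes. The log2 ratio to *Nos1* was 0.31, 0.29 and 0.16 in KO, against 0.54, 0.40 and 0.59 in WT. The log2 ratio to *Elfn1* was 1.02, 1.40 and 1.22 in KO, against 1.63, 1.54 and 1.74 in WT. The third was *Sstr4*, with a difference of -0.53 in the log2 ratio. Without KO replicate 1 it was 5 of the 9, with *Sstr1* and *Sstr2* added, beside 73.6% of all other genes. Nothing is read from these counts, since every ratio holds the *Sst* values. The log2 ratio to *Npy* was 0.65, 1.23 and 1.25 in KO, against 0.96, 1.42 and 1.61 in WT, and those to *Npy*, *Crhbp*, *Cort* and *Chodl* overlapped between the genotypes.

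The ratio was smallest in difference against genes that were themselves lower in KO. *Lhx6*, the transcription factor that specifies interneurons of the medial ganglionic eminence, gave log2 ratios of 2.52, 2.58 and 2.64 in KO, against 2.86, 2.58 and 2.82 in WT, which overlapped and differed by -0.17 in the mean. Against *Pvalb*, the calcium-binding protein of the fast-spiking sister class, the log2 ratios were 1.97, 2.03 and 1.93 in KO, against 2.33, 2.16 and 2.25 in WT and did not overlap. Against *Slc17a7*, the vesicular glutamate transporter of cortical pyramidal neurons, the difference was -0.32, and the groups did not overlap.

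**Figure D3:**
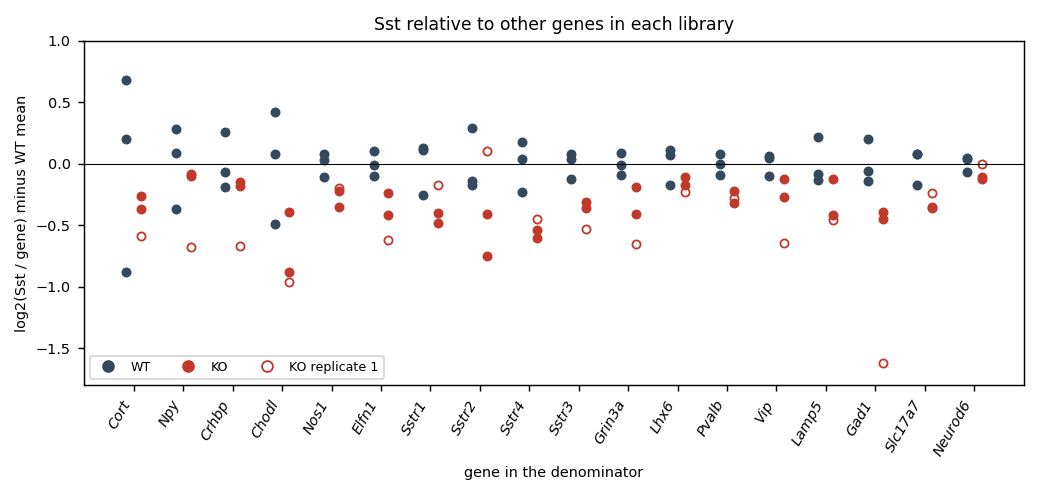
Log2 ratio of *Sst* to the gene named on the horizontal axis, minus its WT mean (vertical axis), each point a library of WT (dark), KO (red) or KO replicate 1 (open red). KO points lie below all WT points for *Nos1*, *Elfn1*, *Sstr4* and *Pvalb* and mix with them for *Npy*, *Crhbp* and *Lhx6*.

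Other markers of the class were then counted. Of 19 further genes expressed by somatostatin cells or subsets of them, 12 were lower and 7 higher in KO, with a median log2 fold change of -0.08 and 0 passing the adjusted threshold. An unadjusted limma-voom p-value under 0.05 was found for 5 lower genes and 1 higher gene, where the shares over all genes are 3.44% and 4.38%. Every KO library lay below every WT library for 4 of the 19 and above for 1 of them, beside 6.29% and 6.72% of all genes. Without KO replicate 1 the median was -0.12 and 5 lay below, beside 10.1% of all genes. The median was -0.05 without the 2 libraries with high *Xist* and 0.00 without KO replicate 3.

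The 3 genes of this list with the lowest p-values were all lower in KO, at an adjusted limma-voom p of 0.635 each. *Lhx6* was at 13.7, 15.5 and 14.5 CPM in KO, against 19.0, 19.2 and 16.7 CPM in WT, a log2 fold change of -0.33 with a 95% interval from -0.57 to -0.09. It was -0.28 without KO replicate 1 and -0.25 without the 2 libraries with high *Xist*. *Calb1*, the calcium buffer calbindin, was at 114, 120 and 112 CPM in KO, against 146, 122 and 135 CPM in WT, a log2 fold change of -0.22. *Pdyn*, which encodes the precursor of the dynorphin peptides, was at 19.7, 19.9 and 22.3 CPM in KO, against 29.7, 25.2 and 22.9 CPM in WT, a log2 fold change of -0.32. The groups did not overlap for *Lhx6*, *Calb1* and *Pdyn*. The log2 fold changes without KO replicate 1 were -0.21 for *Calb1* and -0.29 for *Pdyn*. Without the 2 libraries with high *Xist* they were -0.15 and -0.18. The 7 members that went the other way were named after their values were seen. Of these, *Tacr1*, the substance P receptor of the *Nos1* subset, was at a log2 fold change of 1.01 (unadjusted p = 0.0328 and adjusted p = 0.635 in limma-voom). *Calb2*, or calretinin, was at 1.07, and *Hpse*, or heparanase, at 0.53. *Tacr1* was at 7.98, 5.53 and 2.81 CPM in KO, against 3.53, 1.39 and 3.14 CPM in WT. The groups overlapped for *Tacr1* and *Calb2*, and all KO libraries lay above WT for *Hpse*. Without KO replicate 1 the values were 0.63, 0.25 and 0.48. The other higher members, *Crh*, *Tac1*, *Reln* and *Chrna2*, were at 0.56, 0.28, 0.21 and 0.20, with overlapping groups. They were at -0.04, 0.29, -0.01 and -0.31 without KO replicate 1. *Grin3a*, also named after its values were seen, is an NMDA receptor subunit enriched in somatostatin cells, and its log2 fold change was -0.08 (95% interval -0.33 to 0.17, adjusted p = 0.859 in limma-voom) with overlapping groups.

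**Figure D4:**
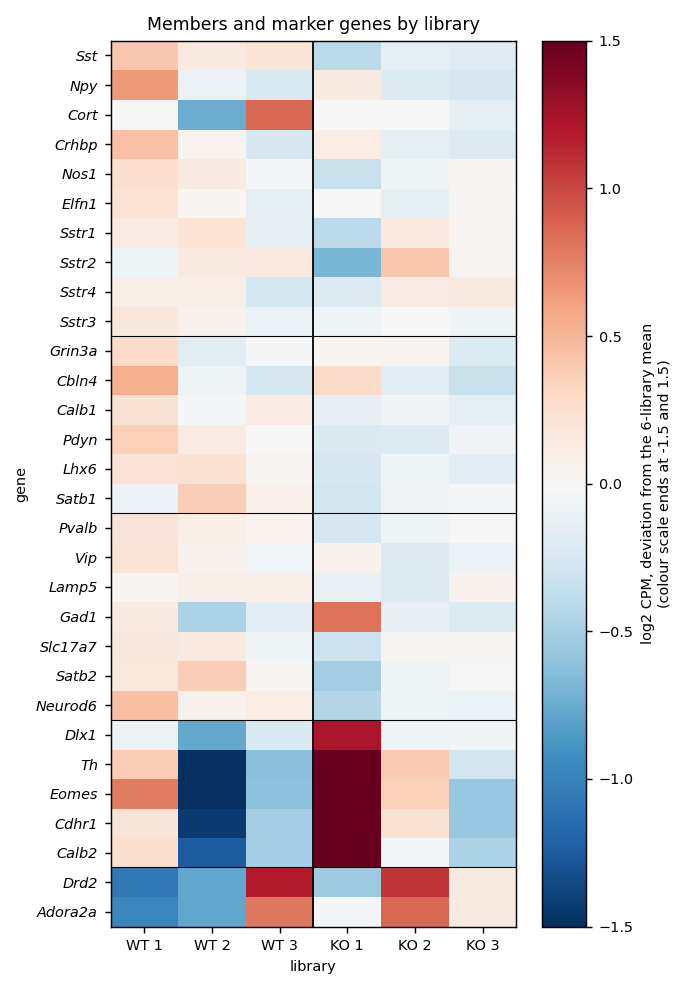
Deviation of log2 CPM from the mean of the 6 libraries (colour, scale ending at -1.5 and 1.5) for genes (rows) and libraries (columns, 3 WT then 3 KO). From the top, the blocks hold the genes of the cells and receptors (without *Chodl*), some other markers of the class, and markers of other neurons. The class markers drawn are a selection, all lower in KO, from a list of 19 with 12 lower and 7 higher. Next come olfactory bulb markers such as *Th*, drawn with *Dlx1* and *Calb2* from other lists, and then striatal markers. KO replicate 1 stands apart in the block with the bulb markers, where *Th* was at 39.1 CPM.

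Other classes of neuron were counted in the same way. Of 10 markers of parvalbumin cells, some of them shared with somatostatin cells, 7 were lower in KO with a median log2 fold change of -0.12, and the groups did not overlap for 3, all lower, beside 6.29% of all genes. *Pvalb* was at 20.1, 23.0 and 24.1 CPM in KO, against 27.7, 25.8 and 25.1 CPM in WT, a log2 fold change of -0.23 (95% interval -0.45 to -0.02, adjusted p = 0.635 in limma-voom). It was -0.15 without KO replicate 1. Markers of Vip cells were lower for 4 of 10 genes (median 0.04, and -0.00 without KO replicate 1), with *Vip* itself at a log2 fold change of -0.15, and markers of Lamp5 cells were lower for 3 of 8 (median 0.10, and -0.01 without KO replicate 1), with *Lamp5* at -0.16. Of 12 markers of glutamatergic neurons, 11 were lower (median -0.13), and *Slc17a7* was at a log2 fold change of -0.18, which was -0.06 without KO replicate 1. The median for glutamatergic markers was -0.06 without KO replicate 1.

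Markers common to all GABAergic neurons went the other way. All 10 were higher in KO, with a median log2 fold change of 0.21, and 0 passed the adjusted threshold. The 3 of lowest p-value were *Dlx6os1*, *Dlx1* and *Dlx5*, homeobox genes and an antisense transcript of the forebrain interneuron lineage, with log2 fold changes of 0.71, 0.76 and 0.86. Without KO replicate 1 these were 0.34, 0.30 and 0.37. *Dlx1* was at 94.3, 37.9 and 38.6 CPM in KO, against 37.4, 23.2 and 33.9 CPM in WT. KO replicate 1, the library highest in olfactory bulb markers, was the highest for all 3. Without it the median of the 10 was -0.02. The KO libraries then lay below all WT libraries for 2 of the 10 and above for 1, beside 10.1% and 10.5% of all genes.

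The path from prohormone to secreted peptide was read from 12 genes of prohormone processing and granule cargo. Of these, 10 were lower in KO with a median log2 fold change of -0.14, and 0 passed the adjusted threshold. The median was -0.14 without KO replicate 1, -0.06 without WT replicate 1 and -0.08 without the 2 libraries with high *Xist*. *Scg5*, the chaperone of prohormone convertase 2, was at 126, 139 and 143 CPM in KO, against 153, 169 and 159 CPM in WT. The groups of *Scg5* did not overlap, and its log2 fold change was -0.24 (95% interval -0.40 to -0.09, adjusted p = 0.635 in limma-voom). *Pcsk2*, that convertase, was at 361, 405 and 454 CPM in KO, against 476, 525 and 435 CPM in WT, also a log2 fold change of -0.24, and KO replicate 3 lay above WT replicate 3. It was -0.15 without KO replicate 1. *Scg3*, a granin of the granule membrane, had a log2 fold change of -0.15. These genes are used by many peptidergic and glutamatergic neurons besides somatostatin cells.

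Downstream of the receptors, 5 of 10 genes of inhibitory G proteins, GIRK channels and arrestins were lower in KO and 5 higher, with a median log2 fold change of -0.00. Those of lowest p-value were *Gnai2*, *Gnai3* and *Gnb1*, subunits of these G proteins, at -0.15, 0.21 and -0.10, and the groups overlapped for all 3. Without KO replicate 1 these subunits were at -0.19, 0.12 and -0.05. Of 12 regulators of cAMP and CREB, 6 were lower and 6 higher, also with a median of -0.00. *Prkaca* and *Prkacb*, the catalytic subunits of protein kinase A, were each at -0.17, and *Crtc2*, a coactivator of CREB, was at 0.20. The groups overlapped for all 3 of these genes as well. They were at -0.11, -0.11 and 0.16 without KO replicate 1.

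**Figure D5:**
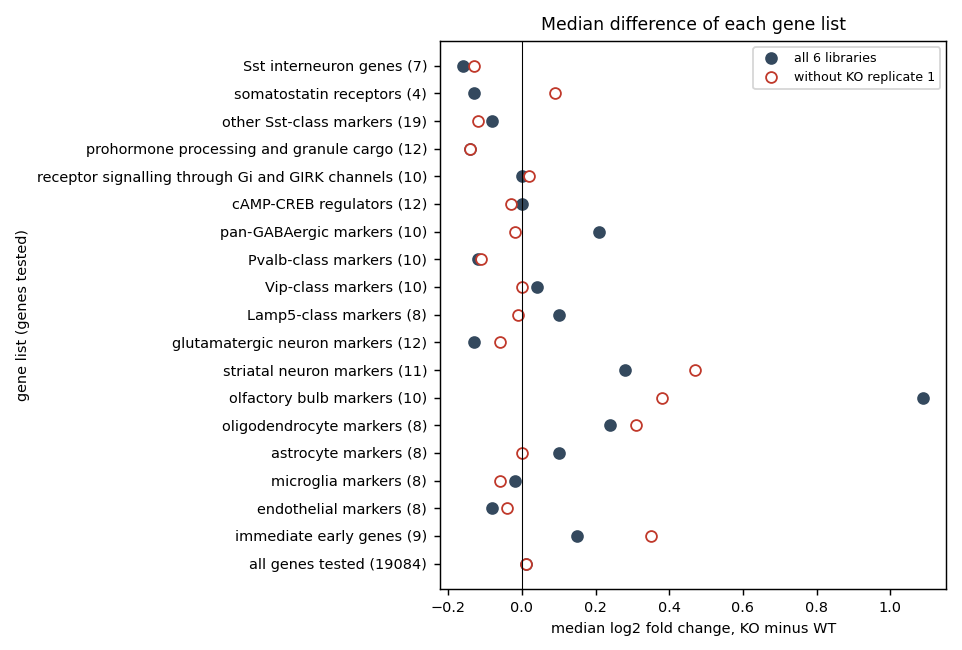
Median log2 fold change of KO over WT (horizontal axis) for each gene list (vertical axis, number of genes tested in parentheses), with all 6 libraries (filled) and without KO replicate 1 (open). Olfactory bulb markers moved from 1.09 to 0.38 and pan-GABAergic markers from 0.21 to -0.02, and other markers of the somatostatin class from -0.08 to -0.12.

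Of the non-neuronal and activity lists, 8 of 8 oligodendrocyte markers were higher in KO (median log2 fold change 0.24, *Mbp* at 0.17) and 8 of 8 astrocyte markers (median 0.10, *Aqp4* at 0.13). The astrocyte median was 0.00 and *Aqp4* was at -0.02 without KO replicate 1. The medians were -0.02 for microglia (*Cx3cr1* at -0.08), -0.08 for endothelium (*Cldn5* at -0.14) and 0.15 for immediate early genes (*Fos* at 0.12). For immediate early genes the median was 0.35 without KO replicate 1 and 0.01 without the 2 libraries with high *Xist*, with *Fos* at 0.34 and -0.09. Without KO replicate 1 the medians were -0.06 for microglia and -0.04 for endothelium, with *Cx3cr1* at -0.13 and *Cldn5* at -0.02. All 11 striatal markers were higher in KO (median 0.28, *Drd1* at 0.23, and without KO replicate 1 0.47 and 0.51), and the summed level of striatal markers was highest in KO replicate 2 and WT replicate 3. *Sst* was in the middle of its own group in WT replicate 3 and the highest of its group in KO replicate 2.

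Last, the genes whose pattern over the 6 libraries was nearest to that of *Sst* were found by the root mean square distance of mean-centred log2 CPM, over 10253 genes with at least 10 CPM on average. They were *Neurod6* (distance 0.0693), *Myl4* (0.0778), *Gm47204* (0.0826), *Smyd3* (0.0891) and *Tgfb1i1* (0.0982), where the median distance was 0.28. *Neurod6*, a transcription factor of cortical pyramidal neurons, was at 60.7, 78.1 and 76.8 CPM in KO, against 113, 85.7 and 89.2 CPM in WT. The log2 ratio of *Sst* to *Neurod6* was 0.40, 0.29 and 0.28 in KO, against 0.33, 0.45 and 0.44 in WT, so the groups overlapped. Among genes of the class, *Pdyn* ranked 18, *Lhx6* 20, *Nos1* 59 and *Calb1* 112, whereas *Elfn1* ranked 2933, *Crhbp* 4623 and *Npy* 6796. Of the other class markers *Satb1* ranked 2994, *Grin3a* 3291, *Npas1* 3431, *Sox6* 4976, *Nxph1* 5307, *Etv1* 7538, *Reln* 9940, *Tac1* 10043 and *Calb2* 10238, all named after their values were seen. Of the receptors *Sstr3* ranked 1583, *Sstr1* 2128, *Sstr4* 5931 and *Sstr2* 7983. The 5 nearest genes were, like *Sst*, lowest in KO replicate 1 and highest in WT replicate 1, and no test was made of this likeness.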

How the data were processed

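For each of 6 libraries the authors deposited unnormalized counts, 1 per read pair (fragment) and gene. Per the submitters' notes and the file headers, the authors used FastQC 0.11.8, aligned with STAR 2.7.9a and counted with featureCounts 1.6.0, paired and reverse-stranded, on GENCODE M31 (GRCm39). The study's methods name an earlier build. No exon of the 10 genes overlapped a gene on the same strand. Symbols matched 52073 of 56923 gene identifiers. As in the study's methods, genes with at least 6 fragments in at least 1 library were kept, normalized with edgeR and voom, and compared by limma. The edgeR scaling used here was TMM, which those methods do not name. Versions were edgeR 4.0.16 and limma 3.58.1 under R 4.3.3. Comparisons were two-sided, without covariates, with Benjamini-Hochberg adjustment over 19084 genes. In simulated counts the script recovered most planted log2 fold changes of at least 1 in either direction, in genes of at least 5 CPM. Smaller changes, such as that of *Sst*, were not simulated. Reads carry no molecular identifiers, so counting errors exclude amplification. Genes and lists were chosen with earlier results of these data known. A gene of the list of other class markers is counted but not reported here. Named were the 10 genes, *Pla2g4e*, *Xist*, *Sstr3*, *Sstr5*, the 3 genes of lowest p-value in 5 lists close to somatostatin biology, the first gene of every other list and the 5 nearest profiles. Further class markers, *Tacr1*, *Calb2*, *Hpse*, *Crh*, *Chrna2*, *Grin3a*, *Satb1*, *Npas1*, *Sox6*, *Nxph1*, *Etv1*, *Reln* and *Tac1*, were named after their values were seen. Alternatives were edgeR quasi-likelihood, DESeq2 1.42.0, other scalings and filters, quality weights, a replicate block, an *Xist* covariate, re-centring by exon length and leaving out libraries.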

Additional observations from a re-analysis of the deposited data

How the results depend on the processing

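*Sst* was lower in KO under all 18 alternatives, and its log2 fold change moved beyond the spread only without the 2 libraries with high *Xist* (-0.34). Leaving out 1 replicate at a time gave -0.55 to -0.42. No companion or receptor passed the adjusted threshold under any alternative that gives a p-value, with adjusted p-values from 0.32 to 0.999 in those fits. Over all genes, 0 passed, with 1492 at an unadjusted p under 0.05. With DESeq2 these counts were 1 and 902, without the 2 libraries with high *Xist* 3 and 696, with the *Xist* covariate 24 passed, and over single replicates left out they ran from 0 to 1 and from 782 (without WT replicate 2) to 2239 (without WT replicate 3), with 830 without KO replicate 1. The cause was not tested. Direction turned for *Cort* with quality weights (0.04) and, without the 2 libraries with high *Xist*, for *Sstr1* (0.05) and *Sstr2* (0.09). Over single replicates left out, the log2 fold change ranged from -0.62 to 0.50 for *Cort*, -0.38 to 0.07 for *Npy*, -0.33 to 0.03 for *Crhbp*, -0.04 to 1.17 for *Chodl*, -0.16 to 0.02 for *Elfn1*, -0.29 to 0.02 for *Sstr1*, -0.44 to 0.16 for *Sstr2* and -0.10 to 0.16 for *Sstr4*. The labels do not say whether replicate numbers pair the samples, and pairing was not tested. Deviations of KO and WT libraries of the same number correlated at 0.32, 0.0772 and -0.026 for numbers 1 to 3. With the replicate block *Sst* was at -0.50, 0 genes passed and 1693 had an unadjusted p under 0.05.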
